A study of Homo sapiens with 14 samples.

Results

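SAHA (vorinostat) was compared with the solvent DMSO in U2OS cells by RNA sequencing, with 1 library for each, and the comparison is therefore a description with no test. These are 2 of the 14 libraries of the study, chosen by their labels. U2OS is an established human osteosarcoma line, here without a genetic change named in the labels. The SAHA culture had 1 μM for 24 h and the DMSO culture had 0.5% solvent by volume for a time the labels do not give. Both libraries stand in 1 table of 10, beside 8 other compounds: 2PCPA, GSK343, BIX-01294, BRD4770, GSK-J4, rapamycin, UNC1215 and VPA. Of these, 2PCPA (1 mM), BIX-01294 (5 μM) and GSK-J4 (20 μM) were given for 12 h. GSK343 (10 μM), BRD4770 (20 μM), rapamycin (5 μM), UNC1215 (50 μM) and VPA (20 μM) were given for 24 h. The 8 libraries therefore mix 12 h and 24 h cultures. These 8 served as a second yardstick for each gene, since a value of the SAHA library that lies outside all 9 others does not hang on the DMSO library alone.

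SAHA is a hydroxamic acid that binds the zinc ion in the catalytic pocket of histone deacetylases (HDACs). HDACs remove acetyl groups from lysines of histones and of many other proteins, and acetylated histone tails are a mark of active promoters and enhancers that bromodomain proteins read. HDACs have no DNA-binding domain of their own and act within corepressor complexes such as SIN3, NuRD, CoREST and NCoR, which transcription factors bring to their target genes. REST, for example, keeps neuronal genes low in other cell types through SIN3A and CoREST.

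Levels are FPKM, a count of fragments scaled by the authors for transcript length and library depth, and differences are on the log2(FPKM + 1) scale, which understates the change of low genes. A difference of 1 on that scale is called 2-fold below. Of 28501 named rows, 12804 averaged 1 FPKM or more across the 10 libraries and were used, and 15697 were below that level. The row AK093551 lay just inside this limit with a mean of 1.0003 FPKM, and DQ580909 lay just outside with 0.9994 FPKM. Absolute depth is unknown because the files hold no counts. Relative depth was read from the commonest ratio to DMSO among detected genes of very low FPKM in both libraries. It was 1.23 times that of DMSO for SAHA, from 111 genes, the deepest of the 10 libraries. For the other 8 it was 0.550 to 1.09 times, from 46 to 128 genes. The 2PCPA library stood apart from its table: it had the lowest value of the 10 libraries for 4724 genes. U2OS cells are a cultured line, and in such bulk RNA fewer cells of a kind and less RNA per cell cannot be told apart.

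How far a difference between 2 single libraries recurs could be read from 3 other compounds that have a second library and a second DMSO library in another table. Over 12058 genes, the spread of a single-library difference was 0.45 on the log2 scale for a single gene. This is the SD of the difference between tables divided by the square root of 2, averaged over the 3 compounds. Of the genes at least 2-fold higher in the table used here, 6.81% for GSK343, 13.9% for 2PCPA and 14.9% for rapamycin were again at least 2-fold higher in the second table. Over all genes the shares this high in the second table were 0.564%, 0.705% and 1.16%. Of those higher genes, 77.9% for GSK343, 61.1% for 2PCPA and 76.4% for rapamycin lay above DMSO again, beside 53.1%, 51.2% and 44.4% of all genes. Of the genes at least 2-fold lower, 5.80% for GSK343, 1.80% for 2PCPA and 4.89% for rapamycin were so again, beside 0.323%, 0.423% and 0.456% of all genes. Of those lower genes, 70.3%, 71.4% and 71.4% lay below DMSO again, beside 46.5%, 48.5% and 55.3% of all genes. Only 1 SAHA library was analysed here, so the share of its differences that would recur is not known.

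The SAHA library had 997 genes at least 2-fold higher than DMSO, 7.79% of the genes used, and 491 at least 2-fold lower, 3.83%. The median difference was 0.05, with quartiles of -0.29 and 0.46. Of the higher genes 88 were listed at 0 in DMSO, and of the lower genes 54 were listed at 0 in SAHA. The excess of higher over lower genes depended on the scaling: when each library was scaled to the same sum, which moved the median of all genes from 0.05 to -0.13, there were 698 higher and 780 lower genes, so that the higher share of both went from 67.0% to 47.2%. Quantile normalization gave 815 higher and 638 lower genes, a higher share of 56.1%. The FPKM values summed to 531006 in SAHA and to 456039 in DMSO.

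The other 8 compounds gave a second reference for the same SAHA library. Against the median of those 8 libraries, 863 genes, 6.74%, were at least 2-fold higher and 397, 3.1%, at least 2-fold lower. Over all genes used, SAHA had the highest value for 2360, 18.4%, and the lowest for 1222, 9.54%. By a gap of at least 1 log2 to the nearest other library, SAHA was highest for 159 genes, 1.24%, and lowest for 40 genes, 0.312%. Only BIX-01294, with 316 genes, had more genes that were highest by such a gap. BIX-01294 and GSK-J4 also had more genes at least 2-fold higher than DMSO, with 1276 and 1142, whereas VPA had 360.

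**Figure D1:**
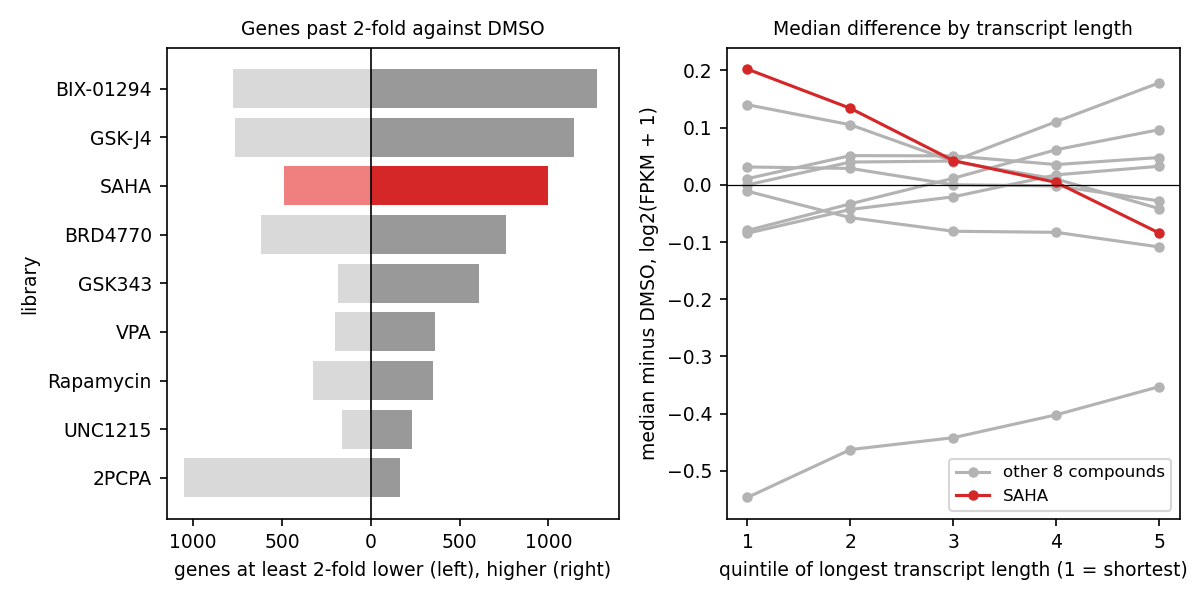
The left panel counts, for each compound library, the genes at least 2-fold lower (bars to the left) and higher (bars to the right) than the DMSO library, with SAHA in red: 491 lower and 997 higher. The right panel plots the median log2(FPKM + 1) difference from DMSO over 5 quintiles of genes ordered by longest transcript (1 is the shortest), where SAHA (red) went from 0.20 in the shortest quintile to -0.08 in the longest and each grey line is 1 of the other 8 compounds.

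The SAHA differences varied with transcript length. In the quintile of genes with the shortest transcripts, each gene taken by its longest one, the median difference was 0.20 and 13.5% of genes were at least 2-fold higher. In the longest quintile these values were -0.08 and 3.33%, and the shares of lower genes were 5.08% and 3.24%. The higher genes also sat at lower levels, with a median of 3.84 FPKM over the other 8 libraries against 8.996 FPKM for all genes used. Of the 997 higher genes, 136 (13.6%) lay below 1 FPKM by that median, beside 3.94% of all genes. The level filter averages all 10 libraries, SAHA included, and 121 genes passed it only through their SAHA value. Of these, 73 were at least 2-fold higher and 0 lower, so a part of the higher count and of its low levels is set by the filter. The part of length and level in each result below was not tested, and medians centred by length are given for some of the lists only. Counts in the lists below stand beside shares over all genes used of 7.79% higher and 3.83% lower. Against the other 8 libraries those shares were 6.74% and 3.1%.

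Several genes stood clear of all 9 other libraries in SAHA. SYP encodes synaptophysin, the membrane protein of synaptic vesicles. Its level was 26.7 FPKM in SAHA and 0.513 FPKM in DMSO, and 0.640 to 5.75 FPKM with a median of 1.60 FPKM in the other 8 libraries, a difference from DMSO of 4.19. REEP6, a membrane-shaping protein of the endoplasmic reticulum, had 34.0 FPKM in SAHA and 1.89 FPKM in DMSO, and 1.37 to 5.00 FPKM with a median of 3.27 FPKM in the others. PPM1J, a protein phosphatase of the PP2C family, had 25.4 FPKM in SAHA and 1.24 FPKM in DMSO, and 2.00 to 4.08 FPKM with a median of 3.06 FPKM in the others. For these 3 genes the SAHA value lay above the next library by 2.03, 2.54 and 2.38 on the log2 scale.

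ABCG4, a sterol transporter, had 8.97 FPKM in SAHA and 0.314 FPKM in DMSO, with at most 0.397 FPKM elsewhere, a gap to the next library of 2.84. ENPP2 encodes autotaxin, which makes lysophosphatidic acid, and had 12.4 FPKM in SAHA and 1.31 FPKM in DMSO, with at most 1.34 FPKM elsewhere, a gap of 2.51. MAPK8IP2, a scaffold of the JNK pathway found in brain, was listed at 0 in DMSO and had 8.09 FPKM in SAHA, with at most 1.19 FPKM elsewhere. ABCG4, ENPP2 and MAPK8IP2 passed the level filter only through SAHA. NGFR, the low-affinity neurotrophin receptor p75, had 14.5 FPKM in SAHA and 0.915 FPKM in DMSO. Its gap was smaller, 1.51, and BRD4770 had the next highest level, 4.46 FPKM.

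BEX5 and DNAAF3 were likewise highest in SAHA. BEX5 had 22.1 FPKM in SAHA and 1.88 FPKM in DMSO, and 0 to 5.86 FPKM with a median of 4.02 FPKM in the other 8. DNAAF3, an assembly factor of ciliary dynein, had 12.4 FPKM in SAHA and 0.7996 FPKM in DMSO, with at most 1.97 FPKM elsewhere. ARHGAP5-AS1, an antisense RNA whose reads cannot be told from its partner's without strand, had 16.2 FPKM in SAHA and 2.57 FPKM in DMSO. For some genes DMSO was at or near 0 while several compounds besides SAHA were high. SNURF, which shares its transcript with SNRPN, had 34.4 FPKM in SAHA and 0.00460 FPKM in DMSO, but 50.2 FPKM in BRD4770 and 40.2 FPKM in VPA. CALB1, a calcium-binding protein, was listed at 0 in DMSO and had 10.1 FPKM in SAHA, beside 7.999 FPKM in BRD4770. FBXO16, CRYM and ZNF32-AS1 were also listed at 0 in DMSO and had 9.97, 7.27 and 7.39 FPKM in SAHA, which was the highest value of the 10 libraries for each. Of these, at least CRYM passed the level filter only through SAHA.

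**Figure D2:**
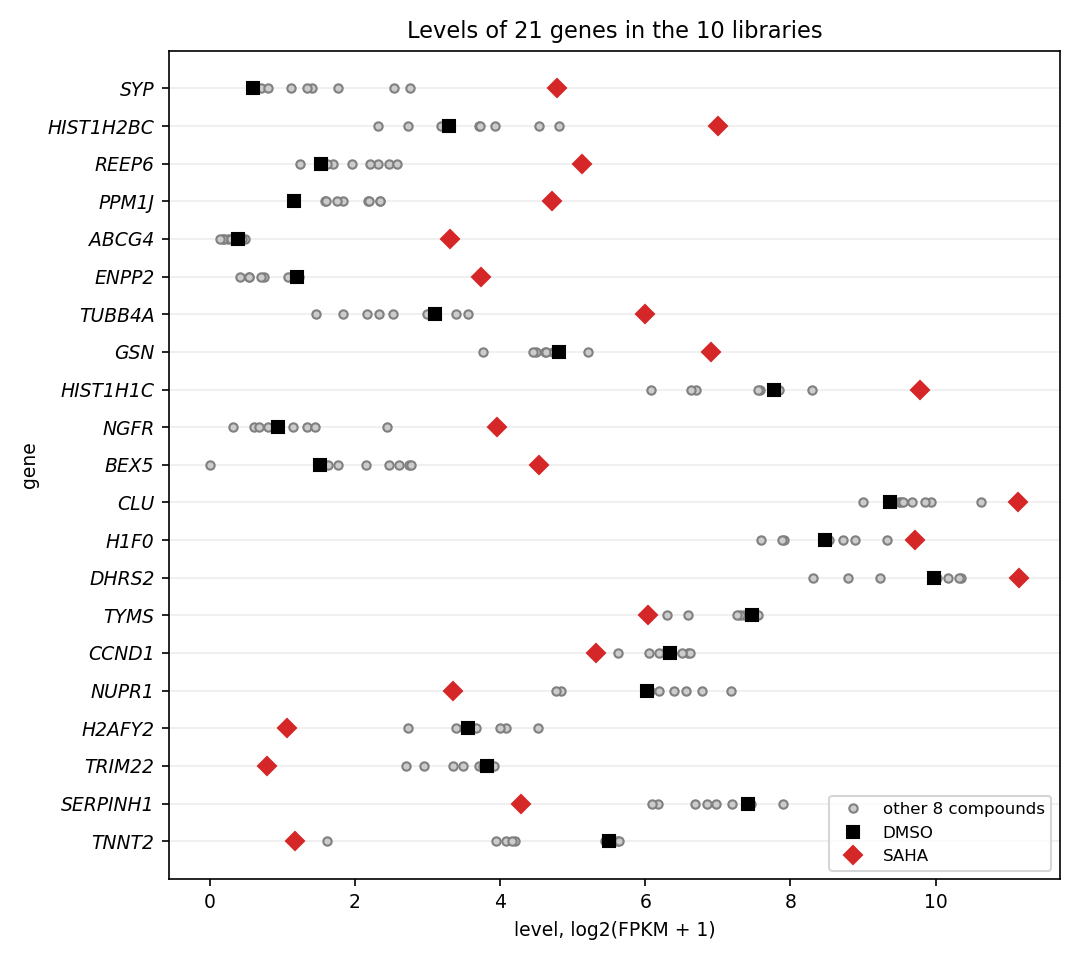
Each row is a gene and each mark its log2(FPKM + 1) level in 1 library: SAHA as a red diamond, DMSO as a black square and the other 8 compounds as grey circles. For the upper genes, from SYP to DHRS2, the SAHA mark lies right of all others, and for the lower genes, from TYMS to TNNT2, it lies left of all others.

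Histone genes stood high as a group in the SAHA library. Replication-dependent histone genes are clustered, short and without introns, and most of their mRNA ends in a stem-loop in place of a poly(A) tail, whereas these libraries were made from mRNA purified from total RNA. Of 29 such genes on the list, 17 passed the level filter. Of these, 11 were at least 2-fold higher in SAHA and 0 lower, beside 7.79% and 3.83% of all genes used, and their median difference was 1.56 against 0.05. SAHA had the highest value of the 10 libraries for 12 of the 17, beside 18.4% of all genes used, and by at least 1 log2 for 8, beside 1.24%. The 12 genes below the filter ranged from 0 to 2.26 FPKM in SAHA and from 0 to 1.21 FPKM in DMSO. Centred by length, the median was 1.35. HIST1H3H passed the filter only through SAHA, and without it 10 of 16 were at least 2-fold higher. Genes of the same histone class can be near-identical, and how reads were split between such genes is not known.

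The linker histone gene HIST1H1C had 882 FPKM in SAHA and 217 FPKM in DMSO, and 66.6 to 313 FPKM with a median of 189 FPKM in the other 8. Among H2B genes, HIST1H2BK had 1024 FPKM in SAHA and 346 FPKM in DMSO, and 75.3 to 449 FPKM with a median of 272 FPKM in the others. HIST1H2BC had 127 FPKM in SAHA and 8.88 FPKM in DMSO, and 3.98 to 27.0 FPKM with a median of 12.2 FPKM in the others, a difference from DMSO of 3.69. In all of these the SAHA library lay above every other. HIST2H2BE had 65.6 FPKM in SAHA and 16.1 FPKM in DMSO. HIST1H2BJ had 98.8 FPKM in SAHA and 34.1 FPKM in DMSO. HIST1H2BD had 97.1 FPKM in SAHA and 48.3 FPKM in DMSO, a difference of 0.99. These H2B genes were also highest in SAHA. Of the H2A genes, which encode the partner of H2B in the nucleosome, HIST1H2AG had 24.0 FPKM in SAHA and 3.23 FPKM in DMSO. HIST1H2AC had 122 FPKM in SAHA and 79.2 FPKM in DMSO. Genes for H3 and H4, the histones with the best known acetylated tails, were fewer. Both H3 genes used, HIST1H3D and HIST1H3H, lay above DMSO, and H4 genes differed in both directions. HIST1H3D had 10.2 FPKM in SAHA and 0.797 FPKM in DMSO. HIST1H4H had 68.5 FPKM in SAHA and 25.9 FPKM in DMSO. The 4 members below DMSO were HIST1H4C, HIST4H4, HIST1H2BF and HIST2H2AC, at differences of -0.62, -0.33, -0.30 and -0.17.

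H2B promoters are known for an octamer, the sequence bound by OCT1. The windows of HIST1H2BC and HIST1H2BK are shown because these genes had the largest difference and the highest SAHA level of the list. They run from 250 bases before to 50 after the RefSeq gene start on GRCh38.p14, a newer build than the hg19 of the expression files, and capitals mark the octamer ATTTGCAT and the CCAAT box, CCAAT, on either strand.
HIST1H2BC, chr6:26123877-26124176, minus strand: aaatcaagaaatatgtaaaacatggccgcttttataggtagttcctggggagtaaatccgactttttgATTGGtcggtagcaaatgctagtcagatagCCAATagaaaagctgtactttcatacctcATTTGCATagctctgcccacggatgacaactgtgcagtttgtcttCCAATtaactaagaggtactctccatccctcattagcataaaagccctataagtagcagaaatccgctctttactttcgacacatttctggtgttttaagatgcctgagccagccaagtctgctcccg
HIST1H2BK, chr6:27146809-27147108, minus strand: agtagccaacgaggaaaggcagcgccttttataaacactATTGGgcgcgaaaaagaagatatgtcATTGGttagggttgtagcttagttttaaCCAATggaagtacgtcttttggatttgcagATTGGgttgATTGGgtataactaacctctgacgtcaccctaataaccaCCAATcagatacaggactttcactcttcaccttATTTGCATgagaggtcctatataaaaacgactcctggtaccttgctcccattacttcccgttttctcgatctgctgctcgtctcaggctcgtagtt
Matches of these motifs did not overlap. The octamer began at position -123 in HIST1H2BC and at -46 in HIST1H2BK. It was found in 9 of the 16 promoters matched for the list, in 5 of its 6 H2B promoters, and in 1.80% of the 27305 promoters of the RefSeq table. CCAAT was found in 13 of the 16 and in 35.7% of all promoters. The octamer did not follow the difference within the list: HIST1H2BF and HIST2H2AC hold it with differences of -0.30 and -0.17, and HIST1H1C lacks it in this window with 2.02. A match is a description of the letters and shows no binding.

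Replacement histones, which are made outside S phase from polyadenylated mRNA, varied among themselves. Of 11 on the list, all passed the filter, 3 were at least 2-fold higher and 1 lower, with a median of 0.52. H1F0, the linker histone of resting and differentiated cells, had 843 FPKM in SAHA and 357 FPKM in DMSO, and 192 to 644 FPKM with a median of 363 FPKM in the others. H2AFX, the variant phosphorylated at DNA breaks, had 389 FPKM in SAHA and 173 FPKM in DMSO, and H2AFJ had 15.1 FPKM in SAHA and 3.40 FPKM in DMSO. Each of these 3 was highest in SAHA. H2AFY2, which encodes the repressive variant macroH2A2, went the other way with 1.10 FPKM in SAHA and 10.8 FPKM in DMSO, and 5.67 to 21.9 FPKM with a median of 11.2 FPKM in the others. Its close relative H2AFY, encoding macroH2A1, had 88.1 FPKM in SAHA and 84.5 FPKM in DMSO.

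**Figure D3:**
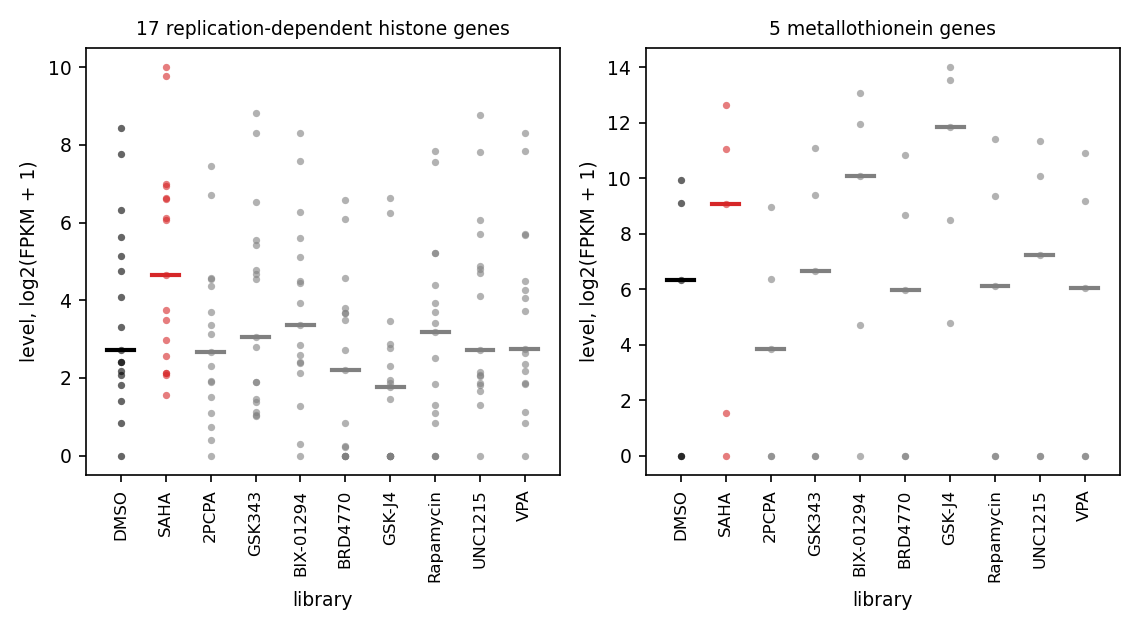
Each point is the log2(FPKM + 1) level of 1 gene in 1 library and each bar the median of the genes in that library, for 17 replication-dependent histone genes (left) and 5 metallothionein genes (right). The histone bar is highest in SAHA (red), whereas GSK-J4 and BIX-01294 lie above SAHA for the metallothioneins.

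Metallothioneins, small proteins that bind zinc and copper and are switched on by the zinc-sensing factor MTF1, were also higher in SAHA. Of 9 on the list, 5 passed the filter, 4 of them at least 2-fold higher than DMSO and 0 lower, with a median of 1.97. Over all genes used, 7.79% were higher and 3.83% lower. MT2A had 6448 FPKM in SAHA and 982 FPKM in DMSO. MT1E had 2149.7 FPKM in SAHA and 548 FPKM in DMSO. MT1X had 542 FPKM in SAHA and 78.9 FPKM in DMSO. Each of these was above DMSO and 6 of the other 8 compounds. MT1G was listed at 0 in DMSO with 1.90 FPKM in SAHA, and MT1H was listed at 0 in both. SAHA had the highest value for none of the 5: MT2A reached 16504 FPKM in GSK-J4 and 8671 FPKM in BIX-01294, both 12 h treatments. These genes are near-identical copies, and the split of reads between them is uncertain. The MT1X promoter is shown because its gene had the largest difference of the list, with the metal response element cores TGCACNC and TGCGCNC in capitals on either strand.
MT1X, chr16:56682220-56682519, plus strand: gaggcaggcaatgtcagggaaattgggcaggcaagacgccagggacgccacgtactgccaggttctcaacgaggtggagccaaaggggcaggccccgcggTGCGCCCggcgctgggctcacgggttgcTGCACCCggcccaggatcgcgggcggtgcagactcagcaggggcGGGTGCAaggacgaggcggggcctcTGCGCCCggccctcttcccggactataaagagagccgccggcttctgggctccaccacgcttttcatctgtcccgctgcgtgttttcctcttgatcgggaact
It holds 2 matches to each core, and none of them overlap. At least 1 match to each core stood in all 3 promoters matched (MT1X, MT2A and MT1H), against 11.9% of all promoters for TGCACNC and 20.0% for TGCGCNC.

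Neuronal genes that REST is known to keep low outside the nervous system formed the next group. Of 30 on the list, 16 passed the filter, 8 of them at least 2-fold higher and 0 lower, with a median of 1.07 against 0.05 for all genes used. Over all genes used, 7.79% were higher and 3.83% lower. SAHA had the highest value of the 10 libraries for 9 of the 16, beside 18.4% of all genes. SYN1 passed the filter only through SAHA, and without it 7 of 15 were at least 2-fold higher with a median of 0.89. STMN3, which destabilises microtubules in neurons, had 22.7 FPKM in SAHA and 5.06 FPKM in DMSO, and 2.84 to 9.54 FPKM with a median of 4.19 FPKM in the others. SYN1, which tethers synaptic vesicles, had 4.53 FPKM in SAHA and 0.445 FPKM in DMSO, and 0.247 to 1.35 FPKM with a median of 0.562 FPKM in the others. NEFL, the light neurofilament chain, had 98.7 FPKM in SAHA and 31.0 FPKM in DMSO, and 19.9 to 68.0 FPKM with a median of 25.01 FPKM in the others. For these 3 genes and for SYP the SAHA library lay above every other.

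CHGB, a granin of secretory granules, had 2.66 FPKM in SAHA and 0.550 FPKM in DMSO. VGF and ENO2 were higher than in DMSO but not highest: VGF had 66.7 FPKM in SAHA and 16.96 FPKM in DMSO beside 135 FPKM in BIX-01294, and ENO2, the neuronal enolase, had 86.1 FPKM in SAHA and 28.1 FPKM in DMSO beside 255 FPKM in GSK-J4. CELSR3, SCG5 and NRSN2 lay below DMSO, at differences of -0.11, -0.16 and -0.65. Of the 14 members below the filter, GAP43 had 2.72 FPKM in SAHA and 0.181 FPKM in DMSO, whereas UCHL1, NEFH and ELAVL3 were listed at 0 in both. Of 5 markers of neural cells, 3 passed the filter and all 3 lay above DMSO, with a median of 0.71, and 0.25 against the other 8 libraries. The 5 summed to 12.9 FPKM in SAHA and 5.58 FPKM in DMSO, within a range of 5.56 to 14.5 FPKM over the 10 libraries, and none was at 0 in SAHA or DMSO. RBFOX3, of mature neurons, had 2.89 FPKM in SAHA and 1.503 FPKM in DMSO. SNAP25, which is also on the neuronal list, had 4.18 FPKM in SAHA and 1.90 FPKM in DMSO. OLIG2, of oligodendrocytes, had 2.72 FPKM in SAHA and 1.28 FPKM in DMSO. The part of these markers in the neuronal list was not tested. GFAP, of astrocytes, had 0.229 and 0.275 FPKM in SAHA and DMSO.

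The SYN1 promoter is shown as the member with a REST motif that was also higher in SAHA. Capitals mark the left part of that motif, TTCAGCACC, and its right part, GGACAG.
SYN1, chrX:47619808-47620107, minus strand: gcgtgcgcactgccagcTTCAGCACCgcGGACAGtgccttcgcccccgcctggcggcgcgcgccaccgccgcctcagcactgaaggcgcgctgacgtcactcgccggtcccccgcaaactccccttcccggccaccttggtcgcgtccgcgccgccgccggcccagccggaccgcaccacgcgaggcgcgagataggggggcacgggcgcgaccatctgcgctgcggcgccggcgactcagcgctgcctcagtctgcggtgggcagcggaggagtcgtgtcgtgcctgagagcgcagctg
The left part was found in 2 of the 12 promoters matched for the list, SYN1 and CELSR3, and in 0.403% of all promoters, with both strands searched. The right part was found in 5 of the 12 and in 20.5% of all promoters, and the 2 parts do not overlap in SYN1. The difference was 1.94 for SYN1 and -0.11 for CELSR3. SYP holds neither part in this window, and nothing about REST follows from that.

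A list of 27 genes reported in the literature to respond upward to HDAC inhibitors was read next. Of its 25 members above the filter, 15 were at least 2-fold higher and 0 lower, beside 7.79% and 3.83% of all genes used. Their median was 1.06. SAHA had the highest value of the 10 libraries for 13 of them, beside 18.4% of all genes. The list shares members with the histone, metallothionein and neuronal lists, so its count is no independent support for theirs. GSN, which encodes the actin-severing protein gelsolin, had 119 FPKM in SAHA and 27.2 FPKM in DMSO, and 12.6 to 36.0 FPKM with a median of 23.6 FPKM in the others. CLU, the secreted chaperone clusterin, had 2244 FPKM in SAHA and 662 FPKM in DMSO, and 513 to 1573 FPKM with a median of 783 FPKM in the others. DHRS2, a short-chain dehydrogenase, had 2274 FPKM in SAHA and 1003 FPKM in DMSO, and 316 to 1306 FPKM with a median of 1035 FPKM in the others. All 3 were highest in SAHA.

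CDKN1A, the p21 inhibitor of cyclin-dependent kinases and the gene best known to respond to HDAC inhibitors, stood out less. It had 77.9 FPKM in SAHA and 57.9 FPKM in DMSO, and 35.9 to 244 FPKM with a median of 81.6 FPKM in the others. Its difference from DMSO, 0.42, was smaller than the 0.45 spread of a single-library difference. That spread is pooled over genes of all levels, and the spread of this gene is not known. The SAHA library was at rank 5 of the 10 for this gene. TXNIP, an inhibitor of thioredoxin, had 4.63 FPKM in SAHA and 0.788 FPKM in DMSO, below BRD4770 with 44.4 FPKM. GADD45B, a stress-response gene, had 70.4 FPKM in SAHA and 34.6 FPKM in DMSO, the highest value of the 10. CDKN1C was the 1 member below DMSO, with 1.93 FPKM in SAHA and 3.31 FPKM in DMSO.

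Of 18 filtered genes reported to respond downward to HDAC inhibitors, 3 were at least 2-fold lower and 0 higher, beside 3.83% and 7.79% of all genes. The median of the 18 was -0.42, and -0.17 against the other 8 libraries. TYMS, the thymidylate synthase of DNA precursor synthesis, had 64.5 FPKM in SAHA and 177 FPKM in DMSO, and 78.0 to 187 FPKM with a median of 160.4 FPKM in the others. CCND1, encoding cyclin D1 of the G1 phase, had 38.9 FPKM in SAHA and 80.1 FPKM in DMSO, and 48.4 to 97.0 FPKM with a median of 78.3 FPKM in the others. CFLAR, encoding the caspase-8 inhibitor c-FLIP, had 2.76 FPKM in SAHA and 12.3 FPKM in DMSO, and 3.87 to 20.3 FPKM with a median of 11.6 FPKM in the others. All 3 were lowest in SAHA. MYC lay slightly above DMSO with 41.5 FPKM in SAHA and 33.4 FPKM in DMSO, and RRM2, a subunit of ribonucleotide reductase, had 202 FPKM in SAHA and 211 FPKM in DMSO.

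**Figure D4:**
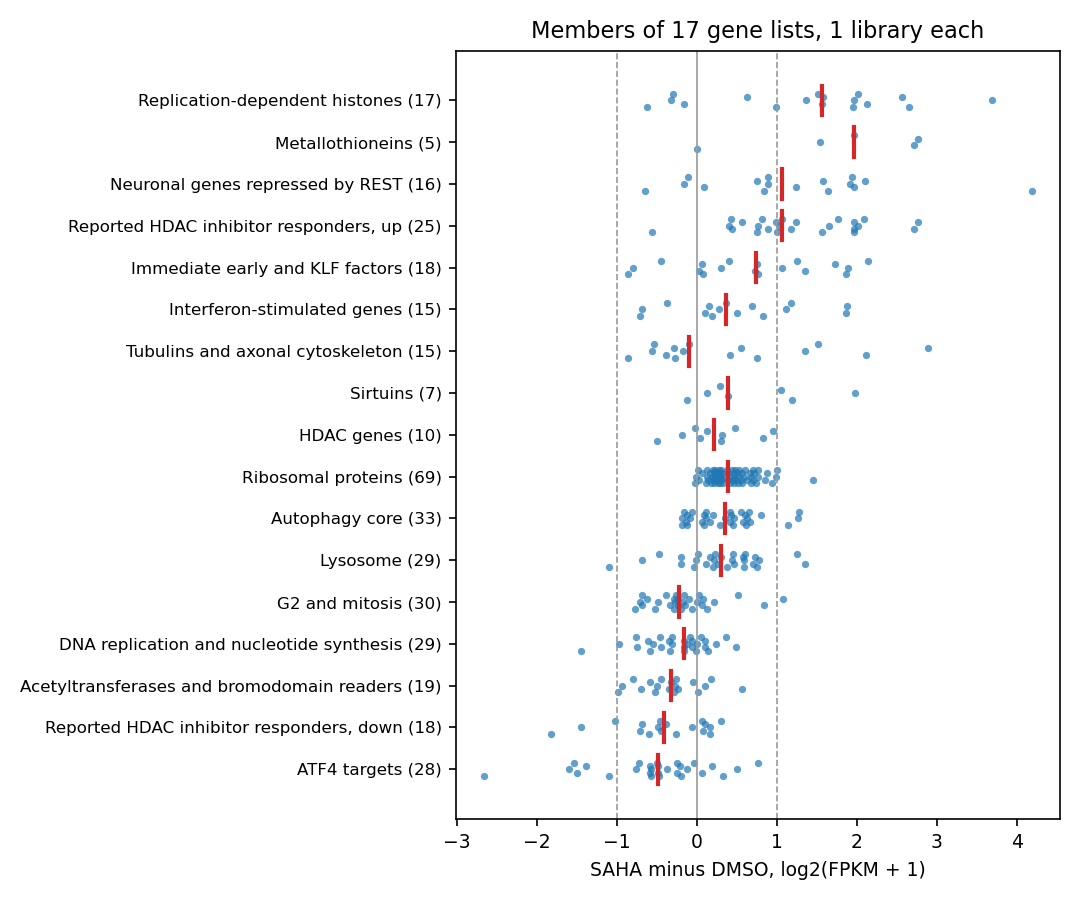
Each point is the SAHA minus DMSO difference of 1 gene on the log2(FPKM + 1) scale, each red bar the median of the list, and the number beside each name the members above the level filter. Dashed lines mark 2-fold in either direction, and the histone, metallothionein, neuronal and upward-responder medians lie right of the upper one.

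The HDAC genes themselves differed little. Of 11, 10 passed the filter (HDAC4 did not), and none differed by 2-fold in either direction. The median was 0.21, and 0.00 when libraries were scaled to the same sum. HDAC1 had 98.8 FPKM in SAHA and 80.1 FPKM in DMSO. HDAC2, its partner in SIN3, NuRD and CoREST, had 32.7 FPKM in SAHA and 26.1 FPKM in DMSO. HDAC3, the deacetylase of NCoR, had 41.5 FPKM in SAHA and 29.5 FPKM in DMSO. The class IIa genes, whose products shuttle between nucleus and cytoplasm, differed in opposite directions. HDAC5 had 16.6 FPKM in SAHA and 8.04 FPKM in DMSO. HDAC7 had 28.8 FPKM in SAHA and 41.3 FPKM in DMSO. HDAC11, the class IV member, had 11.6 FPKM in SAHA and 6.08 FPKM in DMSO, the highest value of the 10 libraries. Sirtuins, NAD-dependent deacylases that work without the zinc ion that hydroxamates bind, had 3 of 7 members at least 2-fold higher, of which SIRT4 passed the filter only through SAHA. Over all genes used, 7.79% were at least 2-fold higher. SIRT2, mainly cytoplasmic, had 20.7 FPKM in SAHA and 4.50 FPKM in DMSO. The nucleolar SIRT7 had 27.1 FPKM in SAHA and 12.5 FPKM in DMSO. The mitochondrial SIRT4 had 3.17 FPKM in SAHA and 0.829 FPKM in DMSO. Each was highest in SAHA.

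Among 24 partners of HDACs in corepressor complexes, 1 was at least 2-fold higher and 1 lower, beside 7.79% and 3.83% of all genes. SAP30, of the SIN3 complex, had 52.9 FPKM in SAHA and 13.0 FPKM in DMSO, and GSK-J4 had 58.8 FPKM. CHD3, a remodelling subunit of NuRD, had 16.6 FPKM in SAHA and 50.5 FPKM in DMSO, the lowest of the 10 libraries. Its partner CHD4 had 145 FPKM in SAHA and 139 FPKM in DMSO. The acetyltransferases and bromodomain readers, which write and read the mark that HDACs remove, had none of 19 past 2-fold, but 15 of 19 lay below DMSO with a median of -0.32, and SAHA was lowest of the 10 for 7, beside 9.54% of all genes. CREBBP had 5.80 FPKM in SAHA and 12.5 FPKM in DMSO. Its paralog EP300 had 6.26 FPKM in SAHA and 9.89 FPKM in DMSO. KAT6B, of the MYST family, had 2.45 FPKM in SAHA and 5.61 FPKM in DMSO. These 3 were lowest in SAHA. HEXIM1, which holds the elongation kinase P-TEFb inactive, was the member farthest above DMSO, with 30.8 FPKM in SAHA and 20.6 FPKM in DMSO.

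SERPINH1 and TNNT2 were among the genes farthest below DMSO. SERPINH1, the collagen chaperone HSP47, had 18.6 FPKM in SAHA and 169 FPKM in DMSO, and 67.1 to 237 FPKM with a median of 119.6 FPKM in the others. TNNT2, the cardiac form of troponin T, had 1.25 FPKM in SAHA and 44.2 FPKM in DMSO, and 2.08 to 48.7 FPKM with a median of 17.2 FPKM in the others, where BRD4770 came nearest to SAHA. LTBP2, of the TGF-beta-binding matrix proteins, had 6.33 FPKM in SAHA and 27.5 FPKM in DMSO, and 18.1 to 64.4 FPKM with a median of 23.8 FPKM in the others. MMP3, a matrix metalloprotease, had 1.99 FPKM in SAHA and 12.2 FPKM in DMSO, and 7.56 to 104 FPKM with a median of 23.6 FPKM in the others. All 4 were lowest in SAHA.

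TRIM22, an antiviral ubiquitin ligase, had 0.729 FPKM in SAHA and 13.1 FPKM in DMSO, and 5.53 to 14.2 FPKM with a median of 11.2 FPKM in the others. NMI, an interferon-inducible partner of MYC and STAT proteins, had 2.86 FPKM in SAHA and 14.6 FPKM in DMSO, and 11.1 to 20.9 FPKM with a median of 14.4 FPKM in the others. Both were lowest in SAHA by at least 1 on the log2 scale. CXCR7, the scavenging chemokine receptor now named ACKR3, had 1.48 FPKM in SAHA and 19.7 FPKM in DMSO. WNT5B, a secreted Wnt ligand, had 0.109 FPKM in SAHA and 7.91 FPKM in DMSO beside 0.733 FPKM in BIX-01294. AVEN, an inhibitor of apoptosis, had 1.94 FPKM in SAHA and 15.1 FPKM in DMSO. These 3 were again lowest in SAHA, as were AMIGO2 and TM4SF19. AMIGO2, an adhesion protein, had 26.9 FPKM in SAHA and 75.3 FPKM in DMSO. TM4SF19 had 0.000851 FPKM in SAHA and 4.15 FPKM in DMSO.

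Targets of ATF4, the transcription factor of the integrated stress response, lay low in SAHA. Of 28 above the filter, 6 were at least 2-fold lower and 0 higher, beside 3.83% and 7.79% of all genes used. Of the 28, 23 lay below DMSO, and the median was -0.48. NUPR1, a stress-induced chromatin protein, had 9.27 FPKM in SAHA and 64.0 FPKM in DMSO, and 26.3 to 145 FPKM with a median of 77.5 FPKM in the others. MTHFD2, of mitochondrial folate metabolism, had 57.6 FPKM in SAHA and 168 FPKM in DMSO, and 76.3 to 296 FPKM with a median of 159.5 FPKM in the others. SLC7A11, the cystine transporter, had 2.37 FPKM in SAHA and 8.54 FPKM in DMSO. These genes and ATF5, with 12.0 FPKM in SAHA and 38.3 FPKM in DMSO, were lowest in SAHA. PSAT1, of serine synthesis, had 17.2 FPKM in SAHA and 38.1 FPKM in DMSO. ATF4 itself had 222 FPKM in SAHA and 288 FPKM in DMSO. Against the same DMSO library, the medians of the list ran from -0.73 in rapamycin to 1.42 in GSK-J4 over the other 8 compounds.

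Immediate early and KLF factors, which cells switch on soon after a stimulus, had 7 of 18 members at least 2-fold higher and 0 lower, with a median of 0.74. Over all genes used the shares were 7.79% and 3.83%. Against the other 8 libraries 1 member was higher and 1 lower, beside 6.74% and 3.1% of all genes. The median of the list was then 0.48. FOS, a part of the AP-1 dimer, had 7.31 FPKM in SAHA and 0.882 FPKM in DMSO. EGR1, a zinc-finger factor, had 26.8 FPKM in SAHA and 6.49 FPKM in DMSO. JUNB, another AP-1 part, had 31.4 FPKM in SAHA and 8.78 FPKM in DMSO. SAHA was highest of the 10 libraries for none of the 18. BIX-01294 lay above it for these 3, with 44.1 FPKM of FOS and 263 FPKM of EGR1. IER2 had 96.6 FPKM in SAHA and 25.7 FPKM in DMSO, and DMSO had the lowest value of the 10 libraries for EGR1 and IER2. FOSL1 and KLF11 were lowest in SAHA, with 9.40 FPKM in SAHA and 17.9 FPKM in DMSO for FOSL1 and 5.28 FPKM in SAHA and 9.94 FPKM in DMSO for KLF11.

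Genes of the cell cycle differed little as groups. Of 30 genes of G2 and mitosis, 1 was at least 2-fold higher and 0 lower, with a median of -0.22 against DMSO but 0.19 against the other 8 libraries. The 1 gene was CDC25C, a phosphatase that activates CDK1, with 14.9 FPKM in SAHA and 6.53 FPKM in DMSO. Of 29 genes of DNA replication and nucleotide synthesis, TYMS alone passed 2-fold, and the median was -0.16, and -0.07 against the other 8. Among G1 cyclins and CDK inhibitors, CCND3 had 47.0 FPKM in SAHA and 21.2 FPKM in DMSO, the highest of the 10, where CCND1 was the lowest. The 20 targets of p53 had a median of -0.12, with PLK3 at 12.2 FPKM in SAHA and 5.13 FPKM in DMSO and FAS at 3.14 FPKM in SAHA and 8.57 FPKM in DMSO.

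Among 21 genes of the BCL2 family and death receptors, BMF, CFLAR, BID and FAS passed 2-fold. BMF, a pro-apoptotic BH3-only protein, had 2.97 FPKM in SAHA and 0.636 FPKM in DMSO, and BCL2L11, encoding BIM, had 6.15 FPKM in SAHA and 3.12 FPKM in DMSO. BID, a BH3-only protein cut by caspase-8, had 3.60 FPKM in SAHA and 11.7 FPKM in DMSO, and with FAS and CFLAR it was lowest in SAHA. The median of the list was 0.17, and -0.01 when libraries were scaled to the same sum.

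The title of the series names autophagy, the delivery of cytoplasm to lysosomes for breakdown. Of 33 core autophagy genes above the filter, 3 were at least 2-fold higher and 0 lower, a share near the 7.79% of all genes, 25 lay above DMSO, and the median was 0.35 against 0.05 for all genes used. Against the other 8 libraries 0 were higher and 2 lower, beside 6.74% and 3.1% of all genes, and the median was 0.18. ATG2A, which transfers lipids to the growing autophagosome, had 11.3 FPKM in SAHA and 4.06 FPKM in DMSO. WIPI1, which binds phosphoinositides there, had 11.3 FPKM in SAHA and 4.10 FPKM in DMSO, and MAP1LC3B, which encodes the membrane-anchored LC3B, had 89.0 FPKM in SAHA and 40.0 FPKM in DMSO. MAP1LC3B was higher still in BIX-01294 and GSK-J4, at 178 and 170.3 FPKM. All 4 ATG4 proteases were highest in SAHA, with differences of 0.60, 0.61, 0.43 and 0.46 for ATG4A, ATG4B, ATG4C and ATG4D.

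Of 13 autophagy receptors none passed 2-fold, and the median was 0.45, 0.29 when centred by length and 0.14 against the other 8 libraries. SQSTM1, encoding p62, had 47.1 FPKM in SAHA and 50.2 FPKM in DMSO, and NBR1 15.3 FPKM in SAHA and 17.5 FPKM in DMSO, the lowest values of the 10. Of 29 lysosomal genes 2 were at least 2-fold higher and 1 lower, shares near the 7.79% and 3.83% of all genes. Their median was 0.30, and none passed 2-fold against the other 8. ATP6V0D1, a subunit of the proton pump, had 63.7 FPKM in SAHA and 26.3 FPKM in DMSO, and the protease gene CTSF had 5.01 FPKM in SAHA and 1.35 FPKM in DMSO, both highest in SAHA. CTSC had 30.1 FPKM in SAHA and 65.7 FPKM in DMSO. TFEB, a master factor of lysosomal genes, had 4.83 FPKM in SAHA and 2.92 FPKM in DMSO.

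Tubulin genes split by isotype. TUBB4A, a beta-tubulin of the nervous system, had 62.9 FPKM in SAHA and 7.65 FPKM in DMSO, and 1.76 to 10.8 FPKM with a median of 4.41 FPKM in the others. TUBA4A had 42.1 FPKM in SAHA and 8.91 FPKM in DMSO, and 2.83 to 11.4 FPKM with a median of 6.21 FPKM in the others. TUBB3, the neuronal class III form, had 162 FPKM in SAHA and 95.6 FPKM in DMSO. These and TUBB2A and TUBB2B, near-identical genes whose reads may be shared, were highest in SAHA. TUBB2A had 64.2 FPKM in SAHA and 24.6 FPKM in DMSO. TUBB2B had 21.5 FPKM in SAHA and 6.87 FPKM in DMSO. The abundant alpha-tubulin genes lay below DMSO. TUBA1A had 898 FPKM in SAHA and 1324 FPKM in DMSO. TUBA1B had 343 FPKM in SAHA and 497 FPKM in DMSO. The 15 members of the cytoskeletal list had a median of -0.09, with 4 at least 2-fold higher and 0 lower, and a median of 0.27 against the other 8 libraries.

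In the actin and contractile list, GSN was at least 2-fold higher, and TPM1, CALD1 and PDLIM1 were at least 2-fold lower, of 20 members, whereas 2 were higher and 1 lower against the other 8 libraries. TPM1, a tropomyosin, had 126 FPKM in SAHA and 342 FPKM in DMSO, and CALD1, caldesmon, had 33.3 FPKM in SAHA and 73.7 FPKM in DMSO. The matrix and YAP or TGF-beta target list had 3 higher and 3 lower of 18, and 1 and 2 against the other 8. ANKRD1, CYR61 and CTGF, which YAP switches on, had 278, 317 and 187 FPKM in SAHA and 86.9, 147 and 91.7 FPKM in DMSO. THBS1, thrombospondin-1, had 47.5 FPKM in SAHA and 167 FPKM in DMSO, and COL3A1 2.70 FPKM in SAHA and 6.78 FPKM in DMSO.

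Among 15 interferon-stimulated genes, 4 were at least 2-fold higher and 0 lower, beside 7.79% and 3.83% of all genes used. Their median was 0.37, and 0.24 when centred by length. IFI27 passed the filter only through SAHA. IFI6 had 70.8 FPKM in SAHA and 18.6 FPKM in DMSO. ISG15, a ubiquitin-like modifier, had 43.4 FPKM in SAHA and 18.7 FPKM in DMSO. IFIT1, an RNA-binding antiviral protein, had 6.92 FPKM in SAHA and 2.65 FPKM in DMSO. These 3 were highest in SAHA, IFI27 was listed at 0 in DMSO with 2.62 FPKM in SAHA, and IFIT3 and OAS3 lay below DMSO. In all, 3 of the 15 lay below DMSO. NMI and TRIM22, named above as lowest in SAHA, are not on this list, so the count of 0 lower holds for the listed genes only. Of 12 NF-kB targets and cytokines, 1 was at least 2-fold higher and 3 lower, beside the same shares of all genes. LIF, a cytokine of the interleukin-6 family, had 4.38 FPKM in SAHA and 17.002 FPKM in DMSO. CSF1, a growth factor of macrophages, had 0.905 FPKM in SAHA and 5.02 FPKM in DMSO. NFKB1, a subunit of NF-kB, had 4.16 FPKM in SAHA and 11.1 FPKM in DMSO. All 3 were lowest in SAHA, and CCL20 had 3.27 FPKM in SAHA and 0.452 FPKM in DMSO.

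Targets of NRF2, the factor of oxidative stress, split: 3 of 16 were at least 2-fold higher and 1 lower, with a median of 0.53, and 0.31 against the other 8 libraries. AKR1C3, an aldo-keto reductase, had 12.5 FPKM in SAHA and 1.12 FPKM in DMSO, and 0.473 to 6.05 FPKM with a median of 1.94 FPKM in the others. TALDO1, of the pentose phosphate pathway, had 145 FPKM in SAHA and 60.1 FPKM in DMSO. Both were highest in SAHA, whereas NQO1 was lowest with 38.8 FPKM in SAHA and 73.8 FPKM in DMSO. Of 27 genes of glycolysis and hypoxia, 4 were at least 2-fold higher, and 2 against the other 8, with a median of 0.41 against DMSO, and SAHA was highest for none. Of 22 genes of cholesterol synthesis none passed 2-fold, and the median was -0.03, and 0.08 against the other 8.

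Ribosomal protein and respiratory chain genes lay slightly above DMSO in most members. Of 69 ribosomal protein genes 67 lay above DMSO, with a median of 0.39, 2 at least 2-fold higher and 0 lower, and SAHA highest of the 10 for 32, beside 18.4% of all genes. Against the other 8 libraries 0 passed 2-fold and the median was 0.22. Of 27 nuclear genes of the respiratory chain none passed 2-fold, 21 lay above DMSO, the median was 0.37 and SAHA was highest for 17. Centred by length, these medians were 0.24 and 0.21, and scaled to the same sum they were 0.18 and 0.16. COX5B had 391 FPKM in SAHA and 242 FPKM in DMSO.

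VPA, valproic acid, is a short-chain fatty acid that also inhibits HDACs, and it was used at 20 μM for 24 h. The dose differs from that of SAHA, and whether VPA inhibited HDACs at this dose was not measured here. Values are therefore set side by side without a comparison. The median difference from the shared DMSO library was 1.56 in SAHA and 0.00 in VPA for the histone list, 1.97 and 0.00 for metallothioneins, 1.07 and 0.40 for the neuronal list, and 1.06 and 0.28 for the reported upward responders. It was -0.48 in SAHA and -0.71 in VPA for ATF4 targets, with 6 and 7 at least 2-fold lower, and 0.39 and 0.50 for sirtuins. The VPA medians of 0.00 fell on members without a difference, and HIST1H4B and MT1G were listed at 0 in DMSO and VPA. Among the detected metallothioneins, MT2A, MT1E and MT1X differed by 0.98, 0.08 and -0.29 in VPA. SYP had 26.7 FPKM in SAHA and 1.53 FPKM in VPA, H1F0 had 843 and 474 FPKM, and GSN had 119 and 25.9 FPKM.

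Markers of the cell line and of other cell types were read in both libraries. Of 9 genes of the osteoblast lineage, 4 passed the filter: COL1A1, SPARC, RUNX2 and SPP1. ALPL, COL1A2, IBSP, SP7 and BGLAP did not, and 4 of the 9 were listed at 0 in SAHA and 2 in DMSO. COL1A1 had 112 FPKM in SAHA and 142 FPKM in DMSO. SPARC had 256 FPKM in SAHA and 299 FPKM in DMSO. RUNX2, the lineage factor, had 1.62 FPKM in SAHA and 5.27 FPKM in DMSO, and 0.629 to 3.22 FPKM with a median of 2.14 FPKM in the others, so DMSO was the highest of the 10 libraries. SPP1, osteopontin, had 4.42 FPKM in SAHA and 0.809 FPKM in DMSO. SP7 and BGLAP were listed at 0 in both libraries. The 7 blood cell markers summed to between 0 and 0.79 FPKM over the 10 libraries, with HBB, HBA1, LYZ and CD3E at 0 in SAHA and DMSO, and the 4 endothelial markers to between 0 and 0.475 FPKM. Of the epithelial markers, CLDN4, a tight-junction claudin, had 12.0 FPKM in SAHA and 1.62 FPKM in DMSO, at most 4.88 FPKM elsewhere, while KRT14 had 1.20 FPKM in SAHA and 3.44 FPKM in DMSO and KRT19 was listed at 0 in both.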

How the data were processed

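RNA from U2OS cells was sequenced. The deposited FPKM values per gene were made by the authors: per the submitters' processing notes, reads went through FastQC, cutadapt and TopHat2 with the hg19 build, while the program behind FPKM, its annotation and the read strand were not stated. Libraries were made from purified mRNA, per the labels' protocols, and amplified in 15 PCR cycles.

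A row named unknown was left out. Differences were taken on log2(FPKM + 1) within 1 table, with no test, using Python 3.11.15, pandas 2.3.3 and numpy 2.4.6, after the steps were tested on simulated data with 200 changed genes. Genes named were the 12 per direction by difference from DMSO, the 12 per direction by gap to the nearest of the other 9 libraries, up to 6 members past 2-fold in each of 40 gene lists (otherwise 2), the HDAC genes and the reported responders, passing over small RNA, clone and LOC rows. That pattern was widened after values were seen, and some genes so picked were left out for length or are not reported here. Genes named outside this rule were chosen after their values were seen. The members and lists were chosen with earlier results of these data known. Transcript lengths (GENCODE v29) matched 89.1% of genes. Alternatives were pseudocounts of 0.1 and 5, filters, 3 scalings, another reference, a fold of 1.5 and, chosen after seeing the data, centring by length, leaving out genes listed at 0 and a level filter without the SAHA library.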

Additional observations from a re-analysis of the deposited data

How the results depend on the processing

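No paired analysis was possible because SAHA and DMSO share only 1 replicate number. With 1 library each, no value has an error of its own. The 997 higher and 491 lower genes, and the 159 and 40 genes with SAHA highest or lowest by at least 1 log2, changed as follows. A pseudocount of 0.1 gave 817 lower genes and 123 lowest. A pseudocount of 5 gave 379 higher, 148 lower, 67 highest and 9 lowest genes. A mean of at least 5 FPKM gave 508 higher, 284 lower and 66 highest genes. Scaling to the same sum gave 780 lower genes and 79 lowest, and quantile normalization 68 lowest. Without the 2PCPA library 69 genes were lowest. With the level filter taken over the 9 libraries other than SAHA, an alternative chosen after seeing the data, 924 genes were higher and 499 lower. A fold of 1.5 gave 2446 higher and 1505 lower genes. Depth was not given, so low genes carry an unknown counting error.

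The medians of the 5 main lists kept their direction under every alternative run. For histones (1.56) they were 1.22 at a pseudocount of 5, 0.99 without a filter, 1.37 with quantile normalization, 1.35 scaled to the same sum, 1.35 centred by length and 1.96 against the other 8 compounds. For metallothioneins (1.97) they were 2.71 at a pseudocount of 0.1, 1.53 without a filter and against the other 8 compounds, 1.64 with quantile normalization, 1.75 scaled to the same sum and 1.81 centred by length. For the neuronal list (1.07) they were 1.35 and 0.74 at pseudocounts of 0.1 and 5, 0.86 without a filter, 0.89 at a mean of at least 5 FPKM, 0.89 scaled to the same sum and 0.89 with the filter over the 9 libraries other than SAHA. For the reported upward responders (1.06) they were 0.87 with quantile normalization, 0.86 scaled to the same sum and 0.90 centred by length. For ATF4 targets (-0.48) they were -0.62, -0.68 and -0.69 with quantile normalization, scaled to the same sum and against the other 8 compounds. Against those 8 the medians of G2 and mitosis (0.19), cancer-testis genes (0.10), the BCL2 family (-0.0036) and the unfolded protein response (0.070) changed sign, as did cancer-testis genes at a mean of at least 5 FPKM (0.042) and the BCL2 family scaled to the same sum (-0.00982). The cause was not tested.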
